A study of Homo sapiens with 6 samples.

Results

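A set of 7 genes for inflammatory cytokines and acute-phase proteins, IL6, CSF3, IL24, CXCL1, CCL20, PTX3 and LCN2, was examined in CAL-27 cells, an established line from a squamous cell carcinoma of the mouth. They were taken by name from a table of 402 genes, and all 7 were found. Mean levels were higher in shYTHDC2 cells for each of them, by 2.28-fold (CXCL1) to 4.74-fold (IL24). RNA sequencing compared shYTHDC2 cells (n = 3), in which YTHDC2 was knocked down, with cells labelled NC (n = 3), and both groups otherwise carry the same cell line label. The labels call the libraries of each group biological replicates. The number of hairpins, whether the lines were clones and whether these replicates came from separate cultures are not stated in the labels. YTHDC2 is an RNA helicase that binds the methyl mark m6A on RNA. The authors marked each of the 402 genes as higher in shYTHDC2 and significant, so the genes were selected on the authors' fold and significance in these same 6 libraries, and the differences are given as a description without a p-value. The smallest fold of any listed gene with signal in NC was 2.00, so the 2.28 of CXCL1 lies near the lowest fold listed. YTHDC2 itself and genes that were lower or little changed were not analysed here, so neither the knockdown nor the squamous markers of the cell line (0 of 11 in the table) could be checked.

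Cytokines and chemokines are small secreted proteins that carry signals between cells, and acute-phase proteins are secreted by tissues under infection or injury. In epithelial cells many of their genes are switched on together by the transcription factors NF-kB and C/EBP, downstream of receptors for IL-1, TNF and IL-17. Their mRNAs are often short-lived, because AU-rich sequences in the 3′ untranslated region (3′ UTR) recruit decay factors. Squamous carcinoma cells are known to secrete IL-6 and neutrophil-attracting chemokines.

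In GRCh38, with positions from GENCODE release 29, all 7 genes lie on the plus strand. CSF3 (ENSG00000108342) spans 40015361 to 40017813 on chromosome 17, IL24 (ENSG00000162892) 206897443 to 206904139 on chromosome 1 and CXCL1 (ENSG00000163739) 73869393 to 73871242 on chromosome 4. CCL20 (ENSG00000115009) spans 227805739 to 227817564 on chromosome 2 and LCN2 (ENSG00000148346) 128149071 to 128153455 on chromosome 9. IL6 (ENSG00000136244) and PTX3 (ENSG00000163661) lie on chromosomes 7 and 3. For IL6, CCL20, PTX3 and LCN2 that annotation has transcripts that start before the RefSeq start used for the upstream sequences.

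The stretch before each gene start is shown for the 6 genes with an entry among the RefSeq promoters (GRCh38.p14, plus strand, 5′ to 3′). The sequences cover up to 200 bases before the start, without bases that GENCODE release 29 puts in an exon. Capitals mark a match to the NF-kB consensus on either strand, and position -1 is the last base before the start.
IL6, chr7:22727000-22727146: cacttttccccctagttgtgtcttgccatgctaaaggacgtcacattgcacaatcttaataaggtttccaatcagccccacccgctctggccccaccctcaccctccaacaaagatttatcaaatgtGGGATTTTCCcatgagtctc
CXCL1, chr4:73869193-73869392: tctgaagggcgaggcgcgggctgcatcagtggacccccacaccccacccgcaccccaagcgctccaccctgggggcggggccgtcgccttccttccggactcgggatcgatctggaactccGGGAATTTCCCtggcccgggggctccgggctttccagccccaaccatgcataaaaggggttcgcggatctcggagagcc
CCL20, chr2:227813642-227813821: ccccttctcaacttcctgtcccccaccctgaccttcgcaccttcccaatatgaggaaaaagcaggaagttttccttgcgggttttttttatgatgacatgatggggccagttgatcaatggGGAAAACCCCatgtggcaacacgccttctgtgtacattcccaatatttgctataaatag
PTX3, chr3:157436650-157436788: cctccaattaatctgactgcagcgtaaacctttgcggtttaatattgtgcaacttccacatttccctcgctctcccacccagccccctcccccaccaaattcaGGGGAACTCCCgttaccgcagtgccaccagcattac
LCN2, chr9:128149265-128149440: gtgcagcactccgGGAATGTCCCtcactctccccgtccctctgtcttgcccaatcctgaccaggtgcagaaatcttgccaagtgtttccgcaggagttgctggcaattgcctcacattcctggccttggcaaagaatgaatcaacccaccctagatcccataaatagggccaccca
IL24, chr1:206897243-206897442: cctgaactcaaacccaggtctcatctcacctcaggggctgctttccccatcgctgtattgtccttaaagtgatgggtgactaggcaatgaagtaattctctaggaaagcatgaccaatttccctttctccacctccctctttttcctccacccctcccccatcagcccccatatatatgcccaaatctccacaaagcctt

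In the 250 bases before the start, 5 of these 6 genes held at least 1 match to the NF-kB consensus, where 9.96% of all 35116 RefSeq promoters and 11.6% of the 370 promoters of other listed genes did. The first base of the match lay at -73 in IL6, at -79 in both CXCL1 and CCL20, at -97 in PTX3 and at -175 in LCN2. In CXCL1 and PTX3 matches on both strands overlap each other, and those of PTX3 start at -97 and -96. IL24 had no match in this window. Of the other motifs searched on both strands, the C/EBP core TTNNGNAA was found in 3 of 6 (IL6, PTX3 and LCN2; 33.2% of all promoters), the AP-1 site TGANTCA in 1 (LCN2; 6.57%) and TATAAA in 1 (CCL20; 10.7%). The STAT site TTCNNNGAA was found in 0 of 6 (6.57% of all promoters). None of the NF-kB matches overlapped a match of these other motifs. A match is a run of letters and not evidence of binding.

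**Figure D1:**
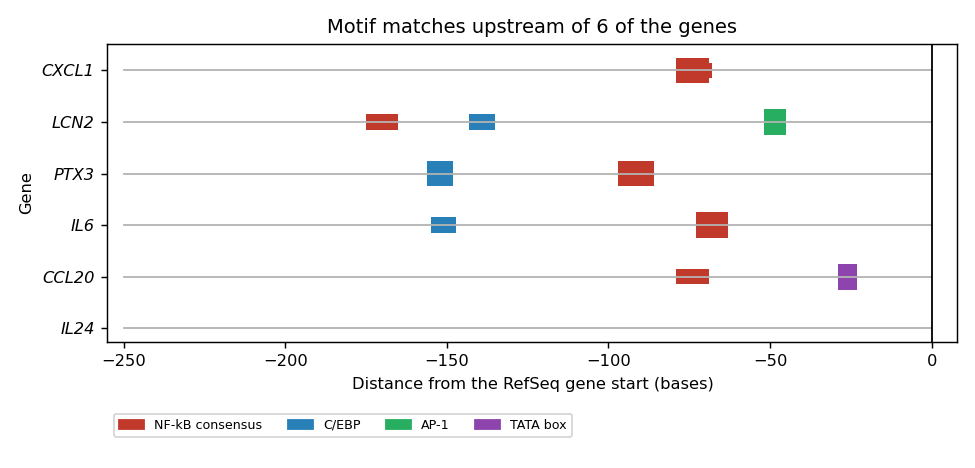
Motif matches in the 250 bases before the RefSeq gene start of 6 genes, drawn to scale, with tall boxes for the plus strand and palindromes and low boxes for the minus strand. The NF-kB matches of IL6, CXCL1, CCL20 and PTX3 lie between -97 and -64, that of LCN2 farther out at -175, and IL24 has no match of any motif.

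The 3′ UTRs of the 7 genes, each from the GENCODE release 29 transcript with the longest one, were between 152 bases (LCN2) and 1154 bases (IL24) long. The pentamer ATTTA, the core of AU-rich elements, occurred in 6 of the 7. Its density was 14.0 per kb in IL6, 8.20 in CSF3, 7.08 in CXCL1, 6.24 in CCL20, 6.16 in PTX3, 2.60 in IL24 and 0 in LCN2. The median was 6.24 per kb for the 7 genes, 1.62 for 280 other listed genes and 1.52 for all 18776 protein-coding genes with a 3′ UTR. The densest window of 30 bases held 3 pentamers in CSF3 and CXCL1, and 2 in IL6, IL24 and PTX3. Those of CSF3, CXCL1 and IL6 are shown 5′ to 3′ with the pentamers in capitals.
CSF3: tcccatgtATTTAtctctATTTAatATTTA
CXCL1: cttaggagaagtcttctATTTATTTATTTA
IL6: ttttaattatttttaATTTAttaatATTTA

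In CXCL1 the pentamers run into one another, and its 3′ UTR held the nonamer TTATTTATT 3 times, overlaps counted. That nonamer was in 1 of the 7 genes (14.3%), 10.0% of the other listed genes and 8.31% of all. GGACT, a common form of the m6A motif, occurred in 3 of the 7, at 3.51 per kb in CSF3, 4.16 in CCL20 and 1.54 in PTX3. It occurred in 65.0% of the other listed genes and 59.0% of all, whose 3′ UTRs are longer (medians of 1470 and 1110 bases, against 649 bases). The median density of GGACT was 0 per kb for the 7 genes, 0.643 for the other listed genes and 0.539 for all. No measurement of methylation or of mRNA decay was analysed here.

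**Figure D2:**
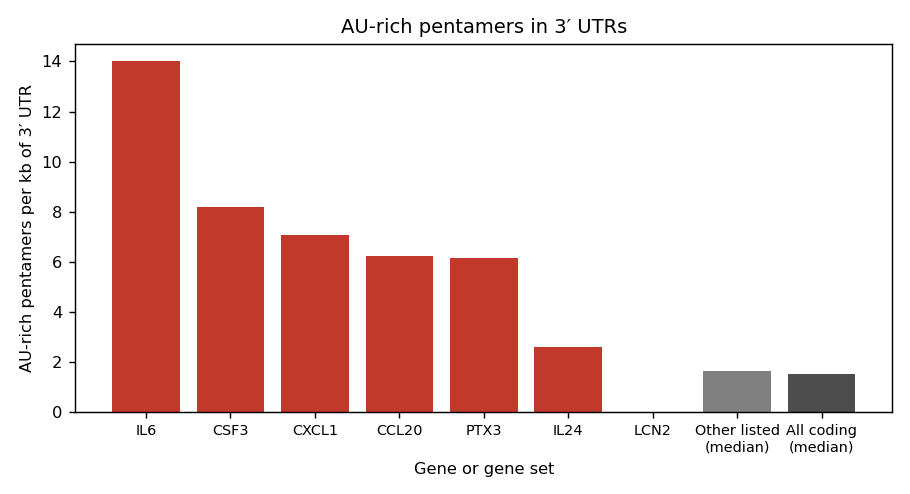
Density of AU-rich pentamers per kb of 3′ UTR in the 7 genes (red bars) and the medians of 280 other listed and 18776 protein-coding genes (grey bars). IL6 has the highest density, 14.0 per kb, 6 of the 7 genes stand above both medians, and LCN2 has none.

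Levels were given in FPKM, fragment counts divided by transcript length and library size, a scale on which genes can be set side by side. In shYTHDC2 cells the order of mean levels was CXCL1, LCN2, PTX3, IL6, CCL20, IL24 and CSF3, with a span of 97.1-fold between the ends. PTX3 and IL6 overlapped in shYTHDC2, as did IL24 and CSF3. The other neighbours in that order did not overlap. In NC cells IL6 stood just above PTX3 and CSF3 just above IL24, and both pairs again overlapped, so these reversals lay within the spread between libraries. The 7 genes summed to 327 ± 12 FPKM in shYTHDC2 and 121 ± 2.5 FPKM in NC (SD, n = 3 each). CXCL1 and LCN2 together made up 74.3% of that sum in shYTHDC2 and 82.6% in NC. As a share of the summed FPKM of the table, the 7 genes held 14.5% to 15.3% in the shYTHDC2 libraries and 14.0% to 14.3% in the NC libraries. In RNA from whole cultures, more cells with a transcript and more transcript per cell cannot be told apart.

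**Figure D3:**
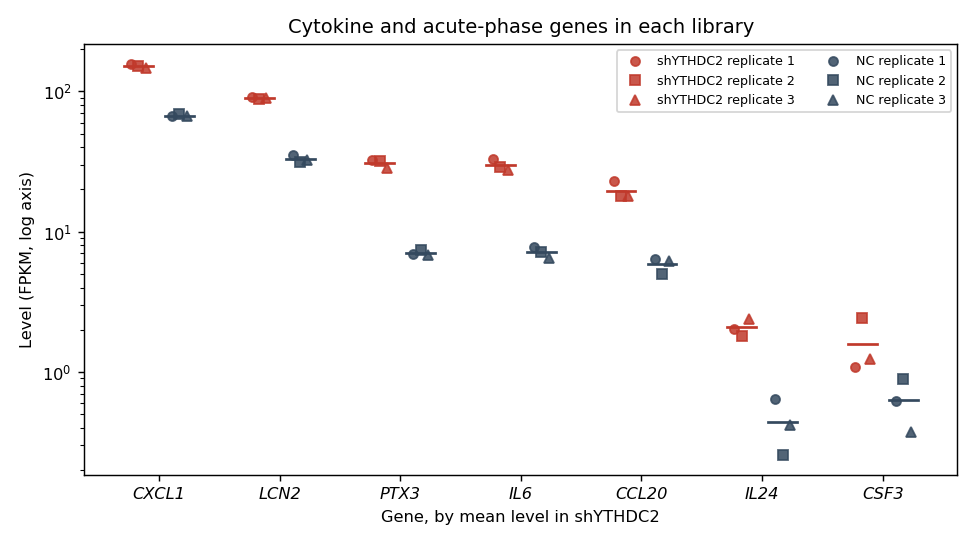
FPKM of the 7 genes in each library on a log axis, with shYTHDC2 left of NC, a marker shape for each replicate and a line at the group mean. The groups do not overlap for any of the 7 genes, and CSF3 has the narrowest gap, 1.08 FPKM in the lowest shYTHDC2 library against 0.896 FPKM in the highest NC library.

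For each of the 7 genes the lowest shYTHDC2 library exceeded the highest NC library. This separation held for 90.5% of the 402 genes, and 100% carried the authors' mark, so nothing is read from the count. Limma called all 7 higher, and 98.9% of the genes it tested. The median fold, the ratio of mean FPKM, was 3.36 for the 7 genes and 2.40 for the 186 genes that had signal in NC and averaged 1 FPKM or more in either group. In the order of folds among those 186 genes, IL24 was number 15, PTX3 19, IL6 23, CCL20 34, LCN2 56, CSF3 77 and CXCL1 115. The gene with the highest level in the table, CXCL1, thus had a fold below the median of 2.40. IL24 and CSF3 averaged 0.439 and 0.631 FPKM in NC, so they passed the level of 1 FPKM only through shYTHDC2. That filter and the selection of the table both rest on the group contrast, so nothing is read from the order or from the 2 medians.

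Among the cytokines, IL6 encodes interleukin-6, which signals through gp130 to STAT3. Its upstream sequence is the one with an NF-kB match at -73. IL6 measured 32.9, 29.0 and 27.6 FPKM in shYTHDC2, against 7.73, 7.17 and 6.50 FPKM in NC. The lowest shYTHDC2 library was 3.57-fold above the highest NC library, and the mean differed 4.18-fold. On the log2(FPKM + 1) scale, which understates differences of low genes, the difference was 1.92 (SE 0.08, limma). STEAP1B, a member of the STEAP metalloreductase family that GENCODE release 29 places across IL6 on the opposite strand, was also in the table, at 0.293, 0.371 and 0.255 FPKM in shYTHDC2 and 0.155, 0.0487 and 0.0124 FPKM in NC. An antisense gene on the strand of STEAP1B also overlaps IL6 and was not listed. The libraries mark strand, but the strand setting of the counting is not stated in the labels. These overlaps are of whole gene spans, and overlap of exons was not examined. Whether reads of IL6 and of these partners were mixed is thus not known. The level of STEAP1B stayed under 0.4 FPKM, far below that of IL6.

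IL24, the gene with no motif match upstream, encodes a cytokine of the IL-10 family that acts on epithelial cells through receptors containing IL20RB. It measured 2.03, 1.81 and 2.40 FPKM in shYTHDC2, against 0.642, 0.255 and 0.420 FPKM in NC. Its 4.74-fold difference of means was the largest of the 7 genes as a ratio but only 1.10 (SE 0.13) on the log2(FPKM + 1) scale. Its neighbour IL20, a related cytokine whose gene lies within 200 kb on chromosome 1, was also listed, at 0.281, 0 and 0.258 FPKM in shYTHDC2 and at 0 in all 3 NC libraries. Of the 11 protein-coding genes within 200 kb of IL24, IL20 was the 1 in the table; the family members IL10 and IL19 in that window were not. CSF3 encodes granulocyte colony-stimulating factor, which drives neutrophil production. It measured 1.08, 2.41 and 1.24 FPKM in shYTHDC2, against 0.623, 0.896 and 0.375 FPKM in NC, a 2.50-fold difference of means. Replicate 2 of shYTHDC2 stood above the other 2 libraries of its group by more than the 0.944 FPKM that separated the group means. The log2(FPKM + 1) difference of CSF3 was 0.64 (SE 0.20), and 0.41 without shYTHDC2 replicate 2.

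CXCL1, whose 3′ UTR holds the overlapping AU-rich pentamers, encodes a chemokine that attracts neutrophils through CXCR2. It measured 158, 153 and 148 FPKM in shYTHDC2, against 66.4, 68.7 and 66.6 FPKM in NC, and ranked first of the table in both groups. Its fold was the smallest of the 7, 2.28, and its difference in FPKM the largest, 85.8. On the log2(FPKM + 1) scale the difference was 1.17 (SE 0.04). CCL20 encodes a chemokine that attracts CCR6-bearing lymphocytes and dendritic cells. It measured 23.1, 17.9 and 17.9 FPKM in shYTHDC2, against 6.40, 4.98 and 6.16 FPKM in NC, a 3.36-fold difference of means. Its shYTHDC2 replicate 1 stood above the other 2, and the log2(FPKM + 1) difference was 1.59 (SE 0.12). The genes next to CXCL1 on chromosome 4 encode related chemokines, among them CXCL3, CXCL5, CXCL6 and CXCL8, and 0 of its 7 protein-coding neighbours within 200 kb were in the table.

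PTX3 encodes a long pentraxin, a soluble pattern recognition protein made by tissues in inflammation. It measured 32.3, 31.7 and 28.5 FPKM in shYTHDC2, against 6.92, 7.41 and 6.79 FPKM in NC. The means differed 4.37-fold, and the lowest shYTHDC2 library was 3.84-fold above the highest NC library, the widest gap of the 7 genes. PTX3 also had the largest log2(FPKM + 1) difference, 1.98 (SE 0.07). GENCODE release 29 places VEPH1, a gene that was not listed, across PTX3 on the opposite strand. Whether reads of VEPH1 and PTX3 were mixed is not known either. LCN2, the gene with no AU-rich pentamer, encodes lipocalin-2, which withholds iron from bacteria by binding their siderophores. It measured 90.8, 88.2 and 90.1 FPKM in shYTHDC2, against 35.5, 31.6 and 32.4 FPKM in NC, a 2.71-fold difference of means and a log2(FPKM + 1) difference of 1.41 (SE 0.05). LCN2 had the lowest spread of the 7 genes in shYTHDC2, with a coefficient of variation of 1.49%.

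**Figure D4:**
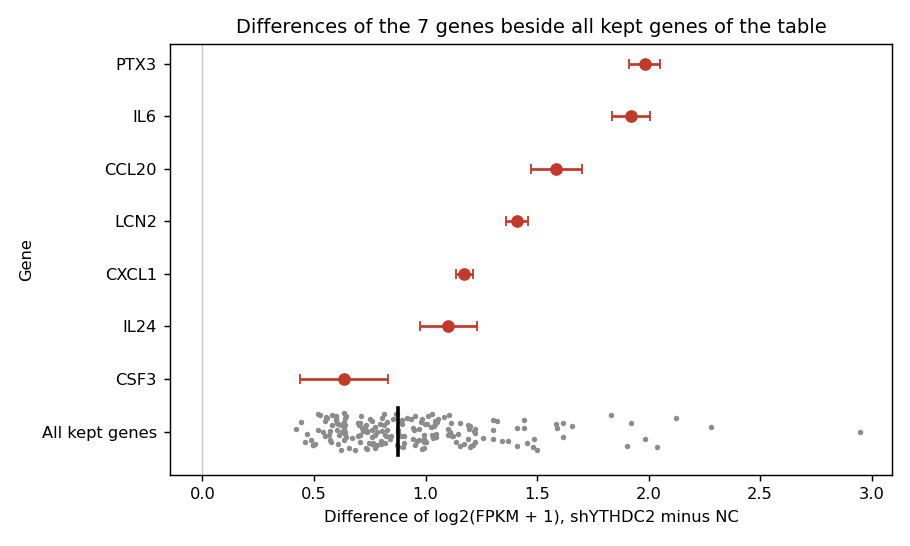
Difference of log2(FPKM + 1), shYTHDC2 minus NC, for the 7 genes (points, with bars of 1 SE from limma) above the 187 genes that averaged 1 FPKM or more in either group (grey points, with a bar at their median of 0.88). PTX3 and IL6 stand farthest right, at 1.98 and 1.92, and CSF3, at 0.64, lies below the median of the 187 genes on this scale.

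The median log2(FPKM + 1) difference was 1.41 for the 7 genes and 0.88 for the 187 genes. CSF3, at 0.64, lay below 0.88, but its fold of 2.50 lay above the median fold of 2.40. CXCL1 was the reverse, with 1.17 on the log2 scale and a fold of 2.28. The difference of CSF3 turned to -0.0225 and that of CXCL1 to -0.17 when libraries were scaled to one another on the listed genes, a scaling that takes the typical listed gene as equal between groups. The other 5 genes lay above 0 under that scaling, from 0.0778 for LCN2 to 0.72 for PTX3. How many of all listed genes lay above 0 was not counted, so nothing is read from the 5.

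Within groups the median coefficient of variation of the 7 genes was 9.23% in shYTHDC2 and 8.63% in NC, beside 9.16% and 13.0% for the 187 genes in shYTHDC2 and in NC. CSF3 had the widest spread in shYTHDC2, 46.3%, and IL24 in NC, 44.3%, and these 2 genes also had the lowest levels. Of the 7 genes, 5 were highest in replicate 1 among the shYTHDC2 libraries (39.6% of the 187 genes were), namely IL6, CXCL1, CCL20, PTX3 and LCN2. Among NC libraries 4 of the 7 were highest in replicate 1 (38.5% of the 187 genes), namely IL6, IL24, CCL20 and LCN2. The deviations of IL6 in replicates 1 to 3 were 0.14, -0.03 and -0.11 in shYTHDC2, and 0.10, 0.01 and -0.11 in NC, on the log2(FPKM + 1) scale.

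**Figure D5:**
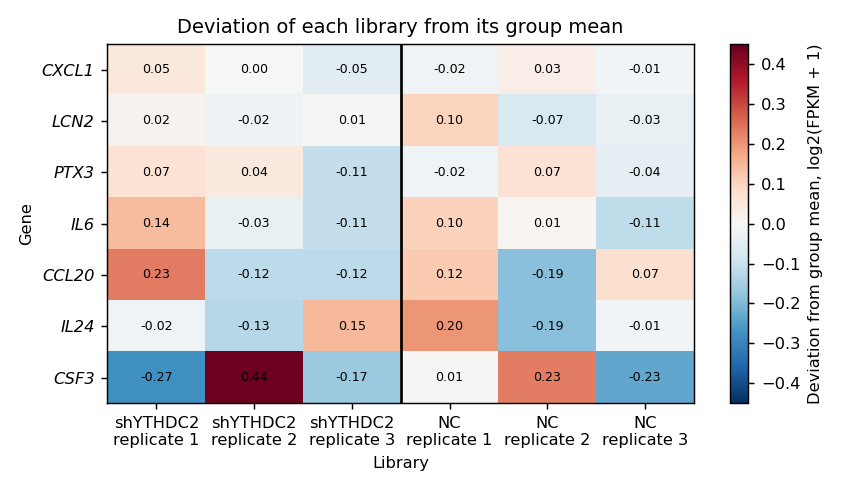
Deviation of each library from its group mean on the log2(FPKM + 1) scale, with genes in rows, shYTHDC2 libraries left of the line and NC libraries right of it. CSF3 in shYTHDC2 replicate 2 has the largest deviation, 0.44, and CXCL1 stays within 0.05 of its group mean in every library.

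By the distance between 6-library profiles, centred on the log2(FPKM + 1) scale, the listed genes most like the mean of the 7 were IL7R, MKNK2, GANAB, HBEGF and DYSF, of 145 genes compared. IL7R, the receptor chain for interleukin-7, was nearest, with a distance of 0.0916. It measured 40.2, 40.7 and 37.7 FPKM in shYTHDC2 and 14.0, 14.1 and 13.8 FPKM in NC. The profile of MKNK2, a kinase that phosphorylates the translation factor eIF4E, lay at 0.149. TPM4, an actin-binding tropomyosin, was nearest to both IL6 (0.289) and PTX3 (0.152). The nearest to CXCL1 was B4GALT1 (0.0633), a galactosyltransferase, and to LCN2 again MKNK2 (0.133). The nearest to CCL20 was COL8A1, a collagen chain (0.274), to CSF3 the membrane protease ADAM19 (0.302), and to IL24 the palmitoyltransferase ZDHHC16 (0.184). Likeness here is set mostly by the size of the group difference, for which all listed genes were chosen.

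The 14 lists of related genes and markers held 159 genes besides the 7, of which 3 were in the table. These were IL20, the antimicrobial peptide DEFB4A and the endothelial cadherin CDH5. DEFB4A measured 1.32, 1.97 and 3.84 FPKM in shYTHDC2, against 0, 0 and 0.514 FPKM in NC, with the groups apart. CDH5 measured 3.30, 2.66 and 3.41 FPKM in shYTHDC2, against 1.39, 1.62 and 1.55 FPKM in NC, and its groups were also apart. It was the 1 endothelial marker of 7 in the table, where leukocyte markers numbered 0 of 12 and fibroblast markers 0 of 9. Whether other cells took part in the differences was not tested. Among the lists by role, the table held 2 of 15 chemokines, 2 of 9 IL-6 family ligands and colony-stimulating factors, 2 of 6 IL-10 and IL-20 family ligands, 2 of 19 acute-phase proteins and 1 of 12 antimicrobial proteins. It held 0 of 15 IL-1 and TNF family ligands, 0 of 10 receptors of the 7 proteins, 0 of 12 upstream inducers and receptors, 0 of 21 regulators of the NF-kB, STAT3 and C/EBP pathways and 0 of 9 decay factors of cytokine mRNAs. Absence from the table shows only that a gene was not listed as higher.

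The pathway annotation that the authors deposited beside the values, from KEGG, covers 150 of the 402 genes. It places 5 of the 7 genes, IL6, CSF3, CXCL1, CCL20 and LCN2, among the 6 listed genes of the IL-17 signaling pathway, and the other is DEFB4A. It also places 5 of the 7, all but PTX3 and LCN2, among the 12 listed genes of cytokine-cytokine receptor interaction. The others there are GDF7, IL13RA2, IL20, IL7R, NGFR, PRLR and TNFRSF11B. Of these, NGFR measured 1.72 ± 0.36 FPKM in shYTHDC2 and 0.733 ± 0.33 FPKM in NC, and TNFRSF11B, the decoy receptor osteoprotegerin, 1.55 ± 0.18 FPKM in shYTHDC2 and 0.387 ± 0.062 FPKM in NC (SD, n = 3 each). PRLR stayed under 0.2 FPKM, and GDF7, IL13RA2 and IL20 were listed at 0 in all NC libraries. This annotation was read after the values were seen. The 7 genes were grouped as cytokines and acute-phase proteins, so a place in such pathways follows in part from that choice. Nothing is read from these counts.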

How the data were processed

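Poly(A) RNA was made into strand-specific libraries, per the labels' protocols, and GRCh38 and the tools HISAT2, StringTie, fastp and edgeR appear in the submitters' processing notes with no version or role. The deposited FPKM of each library was used as given, per the file headers. The authors' fold (a ratio), its log2, and their p-value and q-value stand in the same deposited table and were not used for any result. Depth is unknown, since no counts were analysed here.

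Values were transformed as log2(FPKM + 1). Limma 3.58.1 (R 4.3.3; trend and robust variance, Benjamini-Hochberg at 0.05) was fitted on the 187 genes averaging 1 FPKM or more in either group, of which 185 (98.9%) were called higher, among them the 7. It served for SEs and for counts of calls as a background, and supports no result, because the table was selected on this contrast. The fit was also run on simulated data in which some genes rose, some fell and most did not change. That setting differs from a table selected for higher genes, so the run does not vouch for the fit here. Genes named are the 7, listed members of the fixed lists, the 5 profiles nearest their mean and the nearest to each, and STEAP1B and KEGG genes chosen after their values were seen. Members, lists and motifs were chosen with earlier results of these data known. SEs rest on the spread between these libraries, moderated by limma toward a trend over the 187 genes. The labels call the libraries biological replicates, but separate cultures are not stated, so this spread may be technical. Libraries of a group correlated at 0.984 to 0.989 across the 187 genes, with 0 identical values above 0.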

Additional observations from a re-analysis of the deposited data

How the results depend on the processing

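The count of 185 higher genes of 187 tested was 342 of 402 with no filter on low values. More genes were tested there, and a smaller share was called. It was 31 (18 higher and 13 lower) under a TMM-like scaling on the table, which sets the typical listed gene to no difference by construction. Under that scaling CSF3 stood at -0.0225 and CXCL1 at -0.17 on the log2 scale. The groups of CSF3 overlapped and CXCL1 lay lower in every shYTHDC2 library than in any NC library. IL6, IL24, CCL20, PTX3 and LCN2, 5 of the 7 genes, lay higher in every shYTHDC2 library than in any NC library. For LCN2 the scaled values were close, 55.8 in the lowest shYTHDC2 library and 54.9 in the highest NC library. The share of all listed genes that lay higher in this way was not counted, so nothing is read from the 5. With a replicate block 183 genes were called. Deviations from the group means correlated by 0.0589, 0.151 and 0.0734 between libraries sharing a number, so the numbers were not taken as pairs. Leaving out each library in turn gave 183 to 187 genes. All 7 genes kept groups that do not overlap in each case. Groups that are apart with all libraries must stay so when 1 is removed, so nothing is read from this. Smaller pseudocounts raised the log2 difference of the low genes most, to 1.18 and 1.30 for CSF3 and to 2.07 and 2.31 for IL24, with 0.1 and with 0.01 FPKM. The depth behind the values is unknown.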
